A study of Mus musculus with 12 samples.

Results

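Tongue-innervating neurons of the trigeminal ganglion (TG) from normal female (FN) and normal male (MN) mice were compared over autosomal genes. All 3 FN and all 3 MN libraries entered, 6 of the 12 in the series, and 20633 of the 22609 genes in the count tables lay on an autosome of the annotation. Mice of both groups were adult Balb/c athymic nude animals, a strain without a thymus that lacks mature T cells. Per the labels neither group received tumor cells, whereas the methods of the study describe an injection of a normal oral keratinocyte line, so what the normal tongues received is not settled. Both groups had the fluorescent lectin wheat germ agglutinin (WGA-488), which is carried back along axons to the cell body, injected into the tongue on day 13, and ganglia were taken on day 15. Each library came from a pool of 4 ganglia of 2 animals, and cells were sorted by scatter and by WGA-488 brightness, with no neuron-specific antibody. Bulk RNA from the sorted cells was sequenced by a SMART-seq2 protocol and counted per gene.

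The TG houses the cell bodies of sensory neurons that carry touch, temperature, pain and itch from the face and mouth. Each cell body is wrapped by satellite glia, its axon by Schwann cells, and the ganglion holds blood vessels, fibroblasts and resident macrophages among the neurons. Macrophages in sensory ganglia clear debris and respond to axon injury, and neurons with an injured axon switch on a program that includes Sprr1a, Gal and Atf3. In bulk samples such as these, fewer cells of a type and less RNA per cell cannot be told apart.

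The 6 libraries held 7112207 to 8922011 reads on genes. The sex labels held in every library, with Xist between 1002 and 1860 counts in FN and between 0 and 3 in MN, and Ddx3y between 0 and 2 counts in FN and between 374 and 584 in MN. FN replicate 2 stood apart. Of its reads 56.0% mapped to several places, against 43.0% to 45.5% in the other 5 libraries, and its Spearman correlation with them over genes was 0.812 to 0.827, where those 5 correlated with each other at 0.973 or more. Its levels also moved with gene length. Relative to the MN mean, its median log2 ratio was 1.44 for genes with up to 1000 exonic bases and -0.975 for genes of 4000 to 6000 bases, while the other libraries stayed between -0.09 and 0.23 over all length classes. Each comparison is therefore given for all 6 libraries and for 5 libraries without FN replicate 2. The labels name no batch, date or lane. The study's supplement reports more sorted cells in FN than in MN, and a lower mean and wider spread of RNA integrity in FN, by group and not by library. What part these had in the differences was not tested.

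**Figure D1:**
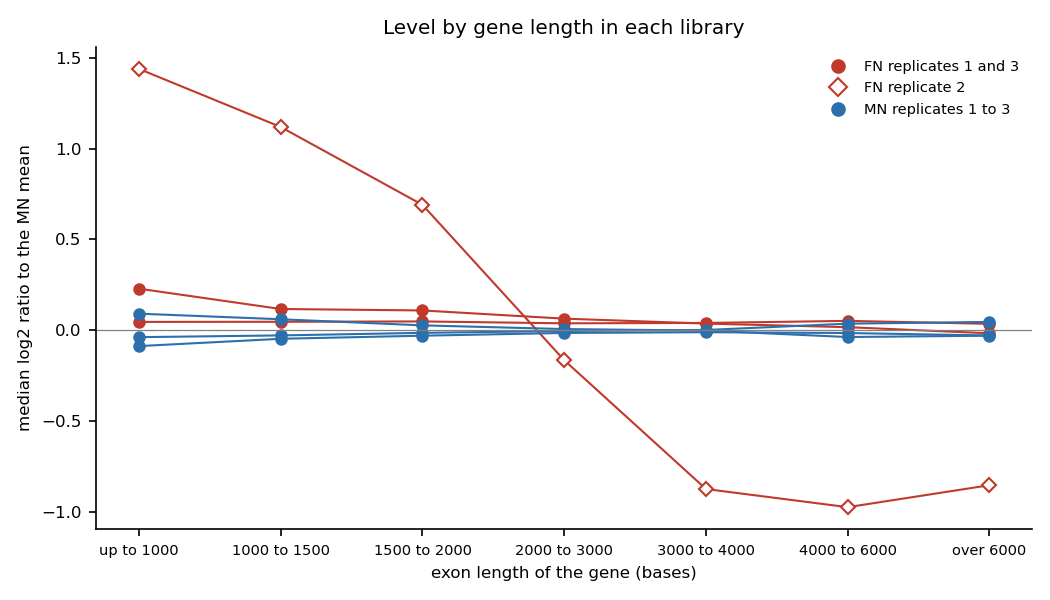
Median log2 ratio of each library to the MN mean (vertical axis) over genes grouped by exon length in bases (horizontal axis), with FN replicates 1 and 3 as red circles, FN replicate 2 as open diamonds and the MN replicates as blue circles. FN replicate 2 runs from 1.44 in the shortest class to -0.85 in the longest, and the other 5 libraries lie between -0.09 and 0.23.

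With 5 libraries, many genes of non-neuronal cells were higher in FN and part of the neuronal genes were lower. By edgeR's quasi-likelihood test with Benjamini-Hochberg adjustment, 731 of 12981 autosomal genes tested passed an adjusted p of 0.05 (5.63%), of which 525 were higher in FN (4.04%) and 206 lower (1.59%). The 5 lists of neuron markers held 85 autosomal genes, all tested, of which 18 were lower in FN (21.2%) and 0 higher, with 39 lower and 3 higher at an unadjusted p under 0.05, which 9.12% of all genes tested met on the lower and 11.3% on the higher side. Their median log2 fold change was -0.27, beside a median of -0.000675 over all genes tested. The 10 lists of non-neuronal markers held 222 genes, of which 180 passed the filter on low counts, and 78 of these were higher in FN (43.3%) and 3 lower (1.67%), with a median log2 fold change of 0.83. By the study's kind of criteria (RPKM over 5 in a group, a fold change over 1.5 and an unadjusted p under 0.05), 498 genes were counted (3.84%), 422 higher in FN (3.25%) and 76 lower (0.585%). In a fit that took its spread from all libraries of the series but FN replicate 2, tumor groups included, 0 genes were called at an adjusted p of 0.05 and 314 had an unadjusted p under 0.05, and 55 were called in that fit when FT replicates 2 and 3 were dropped as well, of which 0 were on the macrophage list.

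With all 6 libraries the same edgeR test called 0 of 12729 genes. At an unadjusted p under 0.05 there were 737 genes (5.79%), 622 higher in FN and 115 lower, while DESeq2 called 66 and limma-voom with sample weights 969 after adjustment. The criteria of RPKM, fold change and unadjusted p counted 425 genes (3.34%), 374 higher (2.94%) and 51 lower (0.401%). The common biological coefficient of variation was 38.2% over the 6 libraries, 11.8% over the 5, and 11.9% within MN alone. At an unadjusted p under 0.05 the neuron markers held 0 genes higher and 6 lower of 85, and the non-neuronal markers 60 higher and 1 lower of 171 tested, against 4.89% of all genes higher and 0.903% lower. The median of the non-neuronal markers was 0.72 with FN replicate 2 and 0.83 without it.

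**Figure D2:**
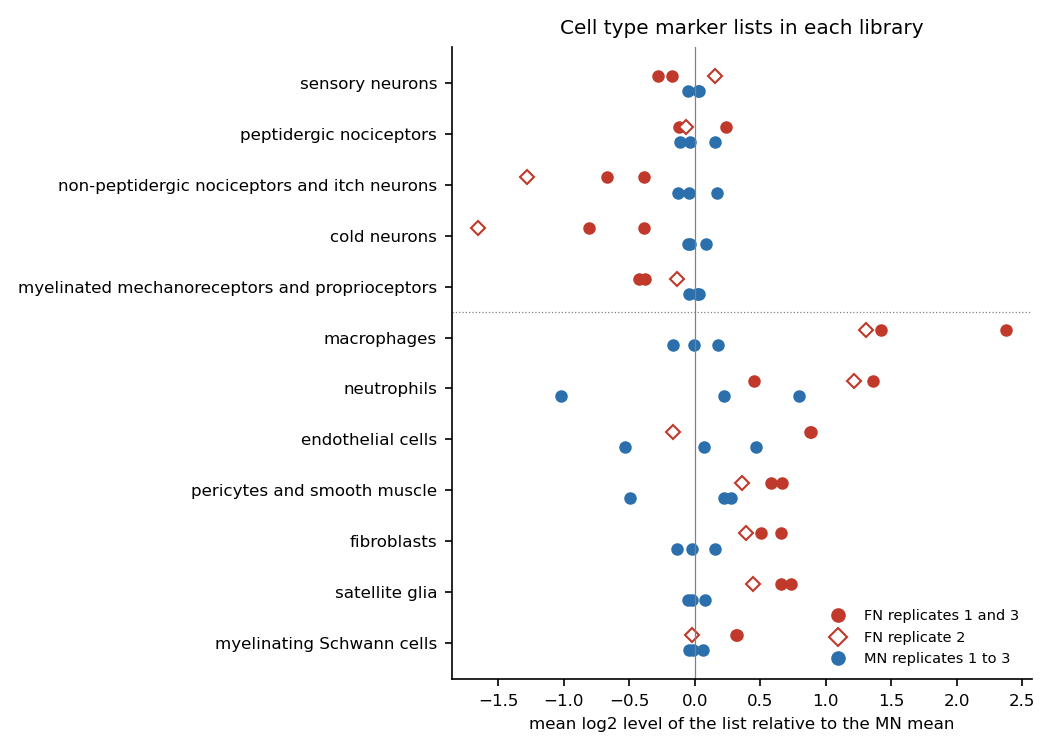
Mean log2 level of each cell type marker list in each library relative to the MN mean (horizontal axis), with neuron lists above the dotted line and non-neuronal lists below it, and FN replicate 2 as open diamonds. The macrophage list lies between 1.31 and 2.37 in the 3 FN libraries and between -0.17 and 0.18 in MN, and the sensory neuron list between -0.28 and 0.15 in FN.

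Macrophage genes had the largest median fold change of the marker lists. Of 36 genes on the list 31 were tested, and 21 were higher in FN and 1 lower with 5 libraries, with a median log2 fold change of 2.30. The summed level of the list was 709 CPM (the reads on a gene scaled by all reads on genes) in FN replicate 1, 404 CPM in FN replicate 2 and 335 CPM in FN replicate 3, against 142, 120 and 117 CPM in the MN replicates. Every FN library lay above every MN library in this sum. FN replicate 1 was the highest, and without it 11 macrophage genes were called higher, against 16 to 21 when any other library was left out.

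The complement C1q genes were among those with no overlap between the groups. C1qa, C1qb and C1qc encode the chains of C1q, which starts the classical complement pathway and is made by macrophages and microglia, and they lie side by side on the minus strand of chromosome 4 (mm9, C1qb at chr4:136436044-136442102, C1qc at chr4:136445719-136448980, C1qa at chr4:136451832-136454718). C1qa measured 41.2, 25.7 and 19.6 CPM in FN and 3.80, 1.68 and 2.07 CPM in MN. C1qb measured 41.4, 32.9 and 21.8 CPM in FN and 5.62, 3.81 and 3.10 CPM in MN. C1qc measured 39.5, 30.3 and 15.5 CPM in FN and 4.22, 3.14 and 1.95 CPM in MN. In all 3 genes FN replicate 2 lay inside the range of the other FN libraries and every FN library lay above every MN library. The latter held for 9.72% of genes tested with 6 libraries. Levels of FN replicate 2 moved with gene length, as given above, and its values here were not corrected for that. With 5 libraries the log2 fold changes were 3.58 ± 0.35 (SE, edgeR adjusted p = 0.00016) for C1qa, 2.88 ± 0.30 (adjusted p = 0.00023) for C1qb and 3.11 ± 0.38 (adjusted p = 0.00068) for C1qc. With 6 libraries they were 3.63 ± 0.45, 3.06 ± 0.40 and 3.33 ± 0.50, with edgeR adjusted p of 0.327, 0.327 and 0.576.

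Lyz2 and Ctss were higher too. Lyz2, the lysozyme of macrophages and other myeloid cells, measured 139, 87.4 and 60.4 CPM in FN and 11.7, 8.63 and 9.07 CPM in MN. Ctss, the lysosomal protease cathepsin S, measured 27.4, 18.4 and 12.2 CPM in FN and 2.81, 2.58 and 2.52 CPM in MN. Both were higher in every FN library than in every MN library, with log2 fold changes of 3.31 ± 0.28 (edgeR adjusted p = 6.3e-05) for Lyz2 and 2.86 ± 0.33 (adjusted p = 0.00051) for Ctss without FN replicate 2. With it the values were 3.40 ± 0.39 and 2.98 ± 0.39 (adjusted p = 0.327 for each). Cd68, a lysosomal membrane glycoprotein, Tyrobp, an adaptor of activating receptors, and Fcer1g, the common Fc receptor gamma chain, were also called higher, by 2.76, 2.28 and 2.77 on the log2 scale, and lay above every MN library in FN replicate 2 as well.

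Several receptors differed between FN replicate 2 and the other FN libraries. Csf1r, the receptor for the macrophage growth factors Csf1 and Il34, measured 69.1, 1.96 and 26.6 CPM in FN and 6.61, 3.14 and 2.30 CPM in MN. Cx3cr1, the fractalkine receptor of resident macrophages, measured 14.0, 0.130 and 8.36 CPM in FN and 0.844, 0.785 and 1.26 CPM in MN. F13a1, the A chain of coagulation factor XIII and a marker of tissue macrophages, measured 32.6, 0.261 and 11.5 CPM in FN and 3.80, 1.79 and 2.07 CPM in MN. FN replicates 1 and 3 were above every MN library for these 3 genes and FN replicate 2 was below every MN library. Without FN replicate 2 they were higher in FN by 3.57 ± 0.40, 3.46 ± 0.38 and 3.09 ± 0.41 on the log2 scale (edgeR adjusted p = 0.00034, 0.00032 and 0.0012). With it Csf1r was at 2.99 ± 1.01 and F13a1 at 2.50 ± 1.12 (adjusted p = 0.632 for both), and Cx3cr1 did not pass the filter. Cd163, the scavenger receptor for hemoglobin bound to haptoglobin, had the largest log2 fold change of the named genes in the fit without FN replicate 2, 4.07 ± 0.49 (adjusted p = 0.00063), with 19.0, 1.70 and 7.94 CPM in FN and 0.422, 1.34 and 0.459 CPM in MN. Cd163 and Cx3cr1 were near the floor in MN and would not have passed the filter on low counts by their MN levels alone. The size of their fold changes is therefore uncertain.

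Where FN replicate 2 lay went with exon length. Of the 21 macrophage genes called higher without it, 13 lay above the MN range in FN replicate 2, with a median exon length of 1358 bases, 3 within it (3788 bases) and 5 below it (5229 bases). Over all 525 genes called higher, FN replicate 2 lay above the MN range for 224 (42.7%) and below it for 231 (44.0%), with median lengths of 2343.5 and 4422 bases, where 33.2% of all genes tested lay above and 56.3% below. Of the 206 genes called lower, it lay below the MN range for 175 (85.0%), within it for 8 (3.88%) and above it for 23 (11.2%).

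**Figure D3:**
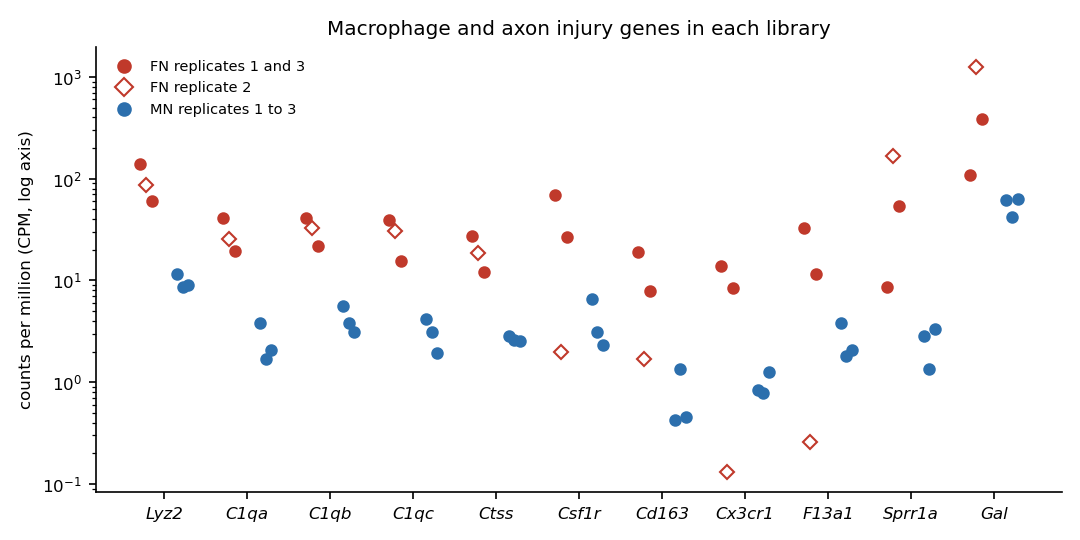
Level of named genes in each library in CPM on a log axis, with FN replicates 1 and 3 as red circles, FN replicate 2 as open diamonds and MN replicates as blue circles. FN replicate 2 joins the other FN libraries for Lyz2, C1qa, C1qb, C1qc and Ctss, lies below every MN library for Csf1r, Cx3cr1 and F13a1, and is the highest library for Sprr1a and Gal.

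Other members of the macrophage list are given here whether or not they were called. H2-Aa, an MHC class II chain, measured 14.2, 10.6 and 6.03 CPM in FN and 3.80, 3.25 and 4.02 CPM in MN (log2 fold change 1.41 ± 0.35, edgeR adjusted p = 0.034 without FN replicate 2). Cd74, the invariant chain that accompanies class II molecules, measured 35.8, 23.2 and 14.4 CPM in FN and 8.86, 2.69 and 3.67 CPM in MN (2.30 ± 0.42, adjusted p = 0.0075). Both were above every MN library in all 3 FN libraries. Cd14, a co-receptor for bacterial lipopolysaccharide, was not called, with 29.4, 39.7 and 18.2 CPM in FN and 12.8, 4.93 and 19.1 CPM in MN (adjusted p = 0.178). Ly86, an accessory protein of the Toll-like receptor homolog Cd180, went the other way, with 12.6, 19.0 and 10.4 CPM in FN and 22.8, 27.6 and 14.9 CPM in MN. It was lower in FN without FN replicate 2 (-0.97 ± 0.25, adjusted p = 0.041), and was called in 5 of 15 alternative settings, with log2 fold changes of -1.19 to -0.73.

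The 10 genes with the smallest unadjusted p over all 6 libraries were Lyz2, C1qa, Ctss, C1qb, C1qc, Ccl6, C5ar1, Wfdc1, Hspa1b and Ms4a6d. Ccl6, a chemokine of myeloid cells, measured 12.4, 5.87 and 3.56 CPM in FN and 0.703, 0.560 and 0.574 CPM in MN. C5ar1, the receptor for complement fragment C5a, measured 4.65, 3.26 and 3.29 CPM in FN and 0.562, 0.560 and 0.803 CPM in MN. Ccl6, C5ar1 and Ms4a6d were near the floor in MN and passed the filter on low counts only through the FN libraries. Wfdc1, a secreted protease inhibitor, measured 21.7, 41.1 and 24.0 CPM in FN and 5.20, 4.60 and 5.39 CPM in MN. All 10 were higher in every FN library than in every MN library, which held for 9.72% of genes tested. They were picked by their p over the same libraries, so this lack of overlap largely follows from the choice. None passed adjustment in the edgeR fit of 6 libraries (adjusted p 0.327 to 0.576). With DESeq2 11 of 26 macrophage genes tested were called higher and with limma-voom 20.

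Promoters of 3 of these macrophage genes are shown because the genes moved together and because each holds GAGGAA, core letters bound by PU.1, the transcription factor that directs macrophage development. The sequences are the 250 bases before the start site in RefSeq (GRCm38.p6), written 5′ to 3′ on the strand of the gene, with matches to GAGGAA on either strand in capitals.
C1qb, chr4:136886201-136886450, minus strand: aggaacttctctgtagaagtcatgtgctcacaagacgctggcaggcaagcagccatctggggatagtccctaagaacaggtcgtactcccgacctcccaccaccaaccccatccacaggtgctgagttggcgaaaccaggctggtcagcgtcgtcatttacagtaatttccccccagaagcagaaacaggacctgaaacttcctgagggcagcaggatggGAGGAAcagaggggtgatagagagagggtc
C1qc, chr4:136892915-136893164, minus strand: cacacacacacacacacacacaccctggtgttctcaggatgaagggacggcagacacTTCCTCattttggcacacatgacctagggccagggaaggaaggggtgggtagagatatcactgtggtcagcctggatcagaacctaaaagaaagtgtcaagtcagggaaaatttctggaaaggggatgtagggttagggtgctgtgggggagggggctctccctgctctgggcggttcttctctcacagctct
Ctss, chr3:95526536-95526785, plus strand: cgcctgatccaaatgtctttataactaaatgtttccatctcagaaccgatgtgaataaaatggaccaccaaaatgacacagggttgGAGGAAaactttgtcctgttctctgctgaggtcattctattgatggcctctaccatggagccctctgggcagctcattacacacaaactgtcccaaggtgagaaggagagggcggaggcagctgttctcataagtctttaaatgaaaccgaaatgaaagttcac
The match began 30 bases before the start site in C1qb, 193 bases before it in C1qc, where it lies on the opposite strand, and 164 bases before it in Ctss. GAGGAA was found in 14 of the 26 macrophage list genes with a promoter in the table (53.8%), in 9 of the 16 of these called higher in FN (56.2%), and in 25.9% of all 27025 genes with a promoter. These counts describe letters only, and the 3 promoters were picked for holding a match.

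Of 18 autosomal genes on the neutrophil list 12 were tested, with 1 higher and 1 lower in FN without FN replicate 2. An unadjusted p under 0.05 was met by 6 of the 12, against 20.5% of all genes tested. The median log2 fold change was 1.00 without FN replicate 2 and 2.28 with it. The number called higher was 0 without FN replicate 1, MN replicate 1 or MN replicate 2, 2 without FN replicate 3 and 4 without MN replicate 3. The higher gene was Il1b, the inflammatory cytokine interleukin 1 beta, which macrophages also make, with 14.1, 29.4 and 6.99 CPM in FN and 2.67, 3.70 and 4.82 CPM in MN (log2 fold change 1.44 ± 0.34, edgeR adjusted p = 0.028). S100a9, a calcium-binding alarmin abundant in neutrophils, measured 14.7, 13.7 and 4.38 CPM in FN and 0, 3.81 and 4.25 CPM in MN (1.73 ± 0.67, adjusted p = 0.160). S100a8, its partner, measured 37.3, 44.1 and 8.63 CPM in FN and 0.562, 6.50 and 8.49 CPM in MN (adjusted p = 0.066). For S100a8 and S100a9 FN replicate 3 lay just above the highest MN library and FN replicates 1 and 2 well above it. Retnlg, a resistin-like protein of neutrophils, measured 6.79, 16.4 and 0.685 CPM in FN and 0, 1.01 and 2.41 CPM in MN, so that the groups overlapped. Its log2 fold change was 1.61 ± 0.86 (adjusted p = 0.319) and its sign turned when FN replicate 1 was left out as well (-0.82, adjusted p = 0.843).

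The lower gene on the neutrophil list had the largest fall of the named genes. Ms4a3, a membrane protein of granulocyte and monocyte progenitors, measured 2.89, 3.13 and 2.33 CPM in FN and 14.2, 10.9 and 7.11 CPM in MN (log2 fold change -2.07 ± 0.36, edgeR adjusted p = 0.0052 without FN replicate 2, and -1.81 ± 0.40, adjusted p = 0.632, with it). All FN libraries lay below all MN libraries, as for 10.4% of genes tested with 6 libraries. The rule for the largest falls required this of FN replicates 1 and 3. Ms4a6d, a member of the same family that lies near it on chromosome 19 and is expressed by macrophages, measured 7.79, 6.13 and 4.11 CPM in FN and 0.844, 1.23 and 0.918 CPM in MN.

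Markers of the other cells that a ganglion preparation could hold were at or near 0. None of 11 markers of other leukocytes (0 of 11) was tested, 6 of the 11 were at 0 in all 6 libraries, and they summed to 0.629 to 2.35 CPM in FN and 0.673 to 0.918 CPM in MN. Red blood cell markers summed to 0 to 0.422 CPM, with Hba-a1, Hba-a2 and Hbb-b1 at 0 in every library. Hemoglobin genes have near-identical copies, and reads mapped to several places lie outside the gene counts. These values of 0 therefore cannot show whether red blood cells were present. Pituitary markers summed to 1.55 to 4.36 CPM.

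Endothelial genes formed the longest list of higher genes. All 51 were tested, 29 were higher in FN and 0 lower without FN replicate 2, with a median log2 fold change of 0.86, and all 51 fold changes were positive. Slc2a1, the glucose transporter Glut1 of barrier endothelium, measured 982, 167 and 949 CPM in FN and 448, 369 and 698 CPM in MN (0.89 ± 0.18, edgeR adjusted p = 0.012). Abcg2, a drug efflux pump, measured 334, 64.5 and 323 CPM in FN and 179, 184 and 230.1 CPM in MN (0.68 ± 0.11, adjusted p = 0.0033). In both cases FN replicates 1 and 3 exceeded all MN libraries and FN replicate 2 fell below them. Tmem204, a junction protein of endothelium, measured 73.8, 64.3 and 67.9 CPM in FN and 26.6, 14.9 and 33.9 CPM in MN, with all FN libraries above all MN libraries and the largest endothelial fold change (1.45 ± 0.22, adjusted p = 0.0027). Ly6c1, a surface antigen of capillary endothelium, measured 303, 704 and 288 CPM in FN and 121, 92.8 and 229.9 CPM in MN (0.95 ± 0.25, adjusted p = 0.041), and FN replicate 2 was its highest library.

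The endothelial level also differed within MN. The list sum was 2704, 1865 and 3759 CPM in MN replicates 1 to 3 and 5151, 3258 and 5094 CPM in FN replicates 1 to 3, so FN replicate 2 lay within the MN range. Cldn5, the tight junction protein claudin 5 of vessels with a barrier, showed the same spread in MN, with 403, 427 and 445 CPM in FN and 259, 137 and 365 CPM in MN (0.69 ± 0.25, edgeR adjusted p = 0.132). The number of endothelial genes called higher was 4 without FN replicate 1, 8 without FN replicate 3, 10 without MN replicate 1, 13 without MN replicate 2 and 40 without MN replicate 3. With all 6 libraries 15 of the 51 had an unadjusted p under 0.05, against 5.79% of all genes tested, and the median was 0.68.

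Vessel wall genes moved the same way. Of 22 pericyte and smooth muscle genes 20 were tested and 7 were higher in FN, with 0 lower, and a median log2 fold change of 0.81. The 7 calls became 2 without FN replicate 3 and 4 without FN replicate 1 or MN replicate 2. Acta2, smooth muscle actin, measured 77.2, 85.7 and 135 CPM in FN and 51.9, 18.2 and 36.0 CPM in MN (1.55 ± 0.30, edgeR adjusted p = 0.010). Myl9, a regulatory light chain of smooth muscle myosin, measured 75.5, 98.6 and 82.0 CPM in FN and 40.5, 17.6 and 30.1 CPM in MN (1.39 ± 0.23, adjusted p = 0.0037). All FN libraries were above all MN libraries for both, and MN replicate 2 was the lowest. Rgs5, a regulator of G protein signaling typical of pericytes, did not pass the test, with 58.7, 14.7 and 43.0 CPM in FN and 53.7, 37.3 and 52.7 CPM in MN (adjusted p = 0.927).

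Of 28 fibroblast genes 25 were tested and 5 were higher in FN, with 0 lower, and a median log2 fold change of 0.56. The 5 calls became 3 without FN replicate 3 or MN replicate 2. Apod, the lipid carrier apolipoprotein D of fibroblasts and glia, measured 212, 796 and 237 CPM in FN and 67.2, 70.4 and 85.7 CPM in MN (1.54 ± 0.12, edgeR adjusted p = 3.2e-05). Dcn, the matrix proteoglycan decorin, measured 72.9, 180.3 and 100.4 CPM in FN and 56.1, 43.8 and 45.2 CPM in MN (0.79 ± 0.15, adjusted p = 0.0092). Both genes were highest in FN replicate 2. Fbln2, the matrix protein fibulin 2, measured 278, 50.2 and 234 CPM in FN and 154, 158 and 153 CPM in MN (0.67 ± 0.10, adjusted p = 0.0025), with FN replicate 2 below every MN library. Moxd1, a monooxygenase-like gene on the list, was not called, with 121, 19.2 and 79.7 CPM in FN and 133, 145 and 112 CPM in MN (adjusted p = 0.152).

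Satellite glia genes were also higher. Of 24 genes 22 were tested, 12 were higher and 1 lower without FN replicate 2, the median log2 fold change was 0.68, and 7 genes were called higher without FN replicate 1 and 11 or 12 when any other library was left out. Apoe, the lipid carrier that glia and macrophages secrete, measured 6547, 15599 and 6516 CPM in FN and 3700, 3280 and 3968 CPM in MN (0.79 ± 0.08, edgeR adjusted p = 0.00017). Sox10, a transcription factor of the glial lineage, measured 78.9, 39.7 and 74.7 CPM in FN and 27.4, 28.9 and 40.4 CPM in MN (1.20 ± 0.15, adjusted p = 0.00097). Kcnj10, the potassium channel Kir4.1 by which satellite glia take up potassium, measured 100.3, 26.5 and 106 CPM in FN and 44.3, 49.2 and 58.9 CPM in MN (0.97 ± 0.13, adjusted p = 0.0011). FN replicates 1 and 3 were above MN for all of these, and FN replicate 2 was above the MN range for Apoe, within it for Sox10 and below it for Kcnj10.

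The lower glial gene was S100b, a calcium-binding protein that large sensory neurons express besides glia, with 422, 907 and 395 CPM in FN and 489.6, 562 and 536 CPM in MN (-0.42 ± 0.09, edgeR adjusted p = 0.020). FN replicate 2 was the highest library for it. Fabp7, a fatty acid binding protein of satellite glia, was not called, with 266, 309 and 334 CPM in FN and 277, 249 and 215 CPM in MN (adjusted p = 0.327). Of 18 genes of myelinating Schwann cells 3 were higher and 0 lower, with a median of 0.27. Mal, a myelin proteolipid, measured 308, 154 and 259.7 CPM in FN and 153, 111 and 162 CPM in MN (0.95 ± 0.14, adjusted p = 0.0019). Cnp, a myelin phosphodiesterase, measured 334, 229 and 328 CPM in FN and 210.2, 218 and 256 CPM in MN (0.48 ± 0.10, adjusted p = 0.014), and Pmp22, a compact myelin protein, 1242, 1241 and 1304 CPM in FN and 1208, 1217 and 1132 CPM in MN (adjusted p = 0.777).

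**Figure D4:**
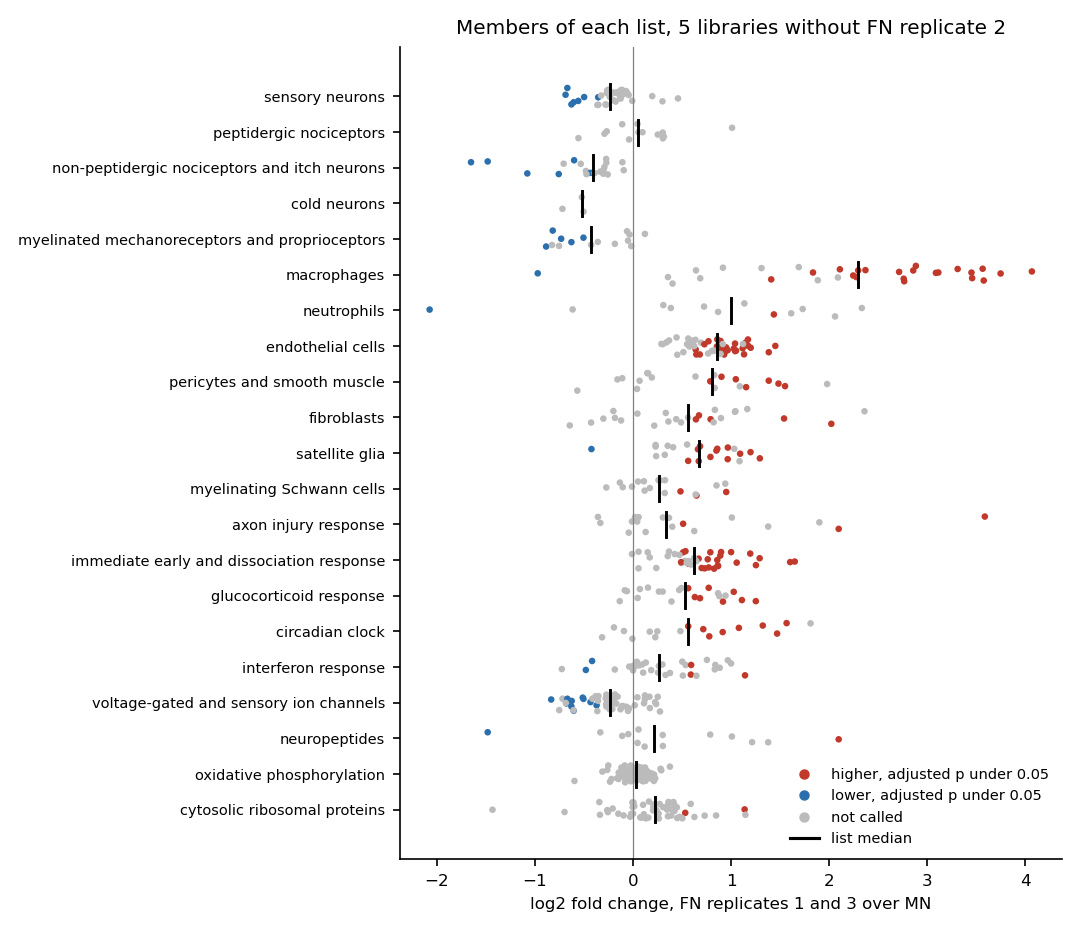
Fitted log2 fold change of FN replicates 1 and 3 over MN (horizontal axis) for each tested member of the lists, red where higher, blue where lower and gray where not called at an adjusted p of 0.05, with the list median as a black bar. Macrophage genes reach 4.07, endothelial genes lie to the right of 0, and the 18 calls on neuron marker lists lie to the left.

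Neuronal identity genes were abundant in every library. Tubb3, neuronal tubulin, measured 3270, 4576 and 3582 CPM in FN and 4141, 4122 and 3772 CPM in MN. Prph, the intermediate filament peripherin of small sensory neurons, measured 2634, 3835 and 2712 CPM in FN and 2886, 2798 and 2738 CPM in MN. Neither was called (edgeR adjusted p = 0.058 and 0.378 without FN replicate 2). The sum of the 35 sensory neuron genes was 31635, 43375 and 32836 CPM in FN and 37740, 38053 and 36577 CPM in MN, so FN replicates 1 and 3 were below every MN library and FN replicate 2 above them.

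Among the 35 sensory neuron genes, 7 were lower in FN and 0 higher without FN replicate 2, with a median log2 fold change of -0.23, and 4 were lower without FN replicate 1 and 5 to 10 when any other library was left out. Neurofilaments, which set the caliber of large myelinated axons, were among them. Nefl, the light chain, measured 2308, 1830 and 2544 CPM in FN and 3331, 3886 and 3633 CPM in MN (-0.63 ± 0.09, edgeR adjusted p = 0.0015). Nefm, the medium chain, measured 1098, 1857 and 1150 CPM in FN and 1526, 1964 and 1747 CPM in MN (-0.69 ± 0.10, adjusted p = 0.0024). Nefh, the heavy chain, which is on the list of myelinated mechanoreceptors, measured 543, 672 and 434 CPM in FN and 698, 698 and 959 CPM in MN (-0.73 ± 0.14, adjusted p = 0.0079). FN replicates 1 and 3 were below every MN library for these 3 genes, whereas FN replicate 2 lay within the MN range for Nefm and below every MN library for the others.

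The other 5 lower genes of the sensory neuron list were channels, receptors and cytoskeletal proteins. Scn10a, the sodium channel Nav1.8 of nociceptors, measured 697, 236 and 774 CPM in FN and 1163, 1058 and 1017 CPM in MN (-0.60 ± 0.09, edgeR adjusted p = 0.0025). Scn11a, the sodium channel Nav1.9, measured 135, 97.3 and 162 CPM in FN and 216, 211 and 259 CPM in MN (-0.67 ± 0.12, adjusted p = 0.0057). Ret, the receptor tyrosine kinase for GDNF family ligands, measured 641, 151 and 597 CPM in FN and 887, 918 and 833 CPM in MN (-0.56 ± 0.09, adjusted p = 0.0030). Every FN library, FN replicate 2 included, was below every MN library for these 3 genes. Over all 35 genes of the list, FN replicate 2 lay below every MN library for 16 and above every MN library for 16. Mapt, the microtubule protein tau, fell by 0.50 on the log2 scale and Avil, the actin-binding protein advillin of sensory neurons, by 0.35 (adjusted p = 0.014 and 0.023).

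**Figure D5:**
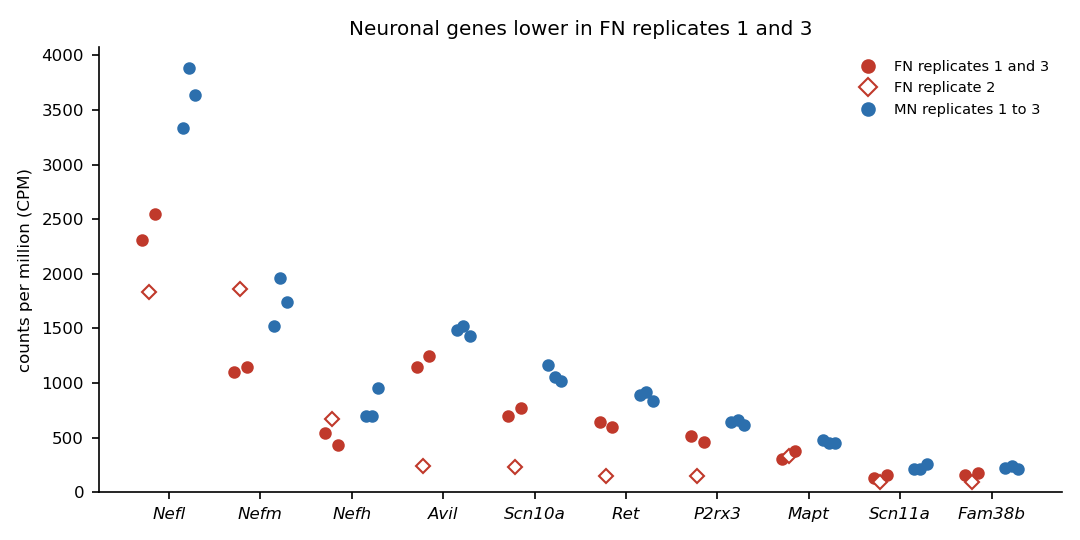
Level of 10 neuronal genes in each library in CPM on a linear axis from 0, with FN replicates 1 and 3 as red circles, FN replicate 2 as open diamonds and MN replicates as blue circles. FN replicates 1 and 3 lie below the MN libraries for each gene, and FN replicate 2 lies far below both for Avil, Scn10a, Ret and P2rx3.

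The classes of sensory neurons are described by their own marker lists, and differences between classes were not tested. Among 13 genes of peptidergic nociceptors the median fold change was 0.056 on the log2 scale. Before adjustment 3 of the 13 had an edgeR p under 0.05, a threshold that 20.5% of all genes tested met. After adjustment 0 were higher and 0 lower in the edgeR fit. Leaving out a further library gave 2 lower without FN replicate 3, and 1 higher without FN replicate 1 or MN replicate 1. Calca, the precursor of the pain peptide CGRP, measured 3843, 11272 and 3918 CPM in FN and 4265, 3295 and 3316 CPM in MN (0.05 ± 0.10, edgeR adjusted p = 0.848). Trpv1, the capsaicin and heat receptor that the study named, measured 163, 11.4 and 235 CPM in FN and 223, 190.1 and 180.2 CPM in MN (-0.04 ± 0.14, adjusted p = 0.916). FN replicates 1 and 3 bracketed the MN range of Trpv1 and FN replicate 2 lay far below it, and the sign of its fold change turned with scaling to neuronal genes (0.18), without FN replicate 1 (0.20) and without MN replicate 1 (0.055).

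Of 20 genes of non-peptidergic nociceptors and itch neurons 6 were lower and 0 higher, with a median of -0.41 and all 20 fold changes negative. Sst, the peptide somatostatin of itch neurons, measured 5.28, 7.44 and 4.25 CPM in FN and 16.9, 7.85 and 14.2 CPM in MN (-1.48 ± 0.33, edgeR adjusted p = 0.020). Il31ra, the receptor for the itch cytokine interleukin 31 in the same neurons, measured 37.5, 4.57 and 34.2 CPM in FN and 69.2, 39.9 and 67.1 CPM in MN (-0.76 ± 0.20, adjusted p = 0.041). Cysltr2, a leukotriene receptor of that class, measured 5.91, 0.913 and 4.38 CPM in FN and 11.8, 8.29 and 11.6 CPM in MN (-1.08 ± 0.28, adjusted p = 0.039). For all 3 genes FN lay below MN in every library, and MN replicate 2 was the lowest MN library. FN replicate 2 lay below every MN library for 17 of the 20 genes of this list, called or not. Mrgprb5, a receptor of the Mas-related family, was called lower on 1.76, 9.39 and 1.10 CPM in FN and 4.08, 4.60 and 4.48 CPM in MN, although FN replicate 2 was its highest library. Gfra1, a co-receptor for GDNF, measured 105, 27.0 and 90.1 CPM in FN and 126, 157 and 145 CPM in MN (-0.60 ± 0.12, adjusted p = 0.013). P2rx3, the ATP-gated channel of non-peptidergic nociceptors, measured 519, 148 and 465 CPM in FN and 645, 663 and 616 CPM in MN (-0.43 ± 0.09, adjusted p = 0.014), and Mrgprd, a receptor that marks polymodal nociceptors, 617, 139 and 440.5 CPM in FN and 756, 758 and 619.8 CPM in MN (adjusted p = 0.056). The 6 calls became 0 without FN replicate 3, 2 without MN replicate 1, 3 without MN replicate 2 and 5 without FN replicate 1 or MN replicate 3.

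Of 15 genes of myelinated mechanoreceptors and proprioceptors 5 were lower and 0 higher, with a median of -0.43. The 5 calls became 1 without FN replicate 3 and 2 without FN replicate 1 or MN replicate 2. Pvalb, the calcium buffer parvalbumin of proprioceptors, measured 25.8, 75.3 and 18.5 CPM in FN and 30.7, 41.2 and 41.1 CPM in MN (-0.82 ± 0.18, edgeR adjusted p = 0.021). Fam38b, the touch channel Piezo2, measured 159, 94.5 and 176 CPM in FN and 225, 245 and 217 CPM in MN (-0.50 ± 0.10, adjusted p = 0.014). FN replicate 2 was the highest library for Pvalb and the lowest for Fam38b. None of the 3 cold neuron genes was called (0 of 3), and Trpm8, the menthol and cold receptor, measured 11.7, 5.22 and 24.4 CPM in FN and 33.0, 22.3 and 30.5 CPM in MN (-0.72 ± 0.26, adjusted p = 0.129).

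Voltage-gated and sensory ion channels, a list that shares members with those above, held 11 lower and 0 higher of 56 tested, with a median log2 fold change of -0.24. Kcnt1, the sodium-activated potassium channel Slack, measured 193, 64.8 and 226 CPM in FN and 321, 327 and 313 CPM in MN (-0.66 ± 0.10, edgeR adjusted p = 0.0025). Scn1a, the sodium channel Nav1.1, measured 53.3, 60.4 and 50.7 CPM in FN and 72.8, 83.6 and 76.0 CPM in MN (-0.63 ± 0.12, adjusted p = 0.0086). Kcna1, a Shaker potassium channel that flanks the node of Ranvier, measured 266, 182 and 262 CPM in FN and 302, 343 and 343 CPM in MN (-0.37 ± 0.10, adjusted p = 0.038). Its partner Kcna2 fell by 0.62 on the log2 scale (adjusted p = 0.016). FN replicate 2 lay below every MN library for all 11 channels, but also for 45 of all 57 genes on the list, called or not. Leaving out a further library left 4 channels called without FN replicate 1, 5 without FN replicate 3, 5 without MN replicate 2, 10 without MN replicate 1 and 9 without MN replicate 3.

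The neuronal falls depended on what the libraries were scaled to. When libraries were scaled to the sensory neuron genes, which sets the median of that list near 0 by construction, the median log2 fold change of all genes moved to 0.23, and 1435 genes were higher and 37 lower, against 525 and 206. Over the neuron, channel and neuropeptide lists 24 genes were lower in the main fit, and 8 of them were still lower after this scaling, namely Nefl, Nefm, Scn10a, Scn11a, Ret, Mrgprb5, Sst and Kcnt1. Nefl was then at -0.40 ± 0.080 (edgeR adjusted p = 0.0082), Scn10a at -0.38 ± 0.082 (adjusted p = 0.012) and Kcnt1 at -0.44 ± 0.095 (adjusted p = 0.012). Tac1, the precursor of substance P, Trpa1, the receptor for irritants, and Runx1, a nociceptor transcription factor, were not called in the main fit and were called higher with this scaling (0.53, 0.48 and 0.53). The macrophage, endothelial and satellite glia lists held 21, 42 and 17 higher genes and 0 lower under it. The higher non-neuronal sums given above were in the same libraries as the neuronal falls, and beyond this scaling their part in those falls was not tested.

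Genes of the axon injury response gave 3 higher and 0 lower of 18 tested without FN replicate 2, with a median log2 fold change of 0.34. The 3 calls became 5 without FN replicate 1 and 2 without FN replicate 3, MN replicate 1 or MN replicate 2. Sprr1a, a small proline-rich protein induced in sensory neurons after axotomy, measured 8.55, 167 and 53.7 CPM in FN and 2.81, 1.34 and 3.33 CPM in MN (3.59 ± 0.58, edgeR adjusted p = 0.0037, and 5.24 ± 1.18, adjusted p = 0.632, with FN replicate 2). Without FN replicate 3 as well, Sprr1a was at 1.73 and no longer called (adjusted p = 0.0721), and limma-voom did not call it (adjusted p = 0.0559). Gal, the neuropeptide galanin that injured sensory neurons make, measured 109, 1245 and 383 CPM in FN and 61.4, 41.6 and 63.7 CPM in MN (2.10 ± 0.35, adjusted p = 0.0043, and 3.69 ± 0.95, adjusted p = 0.632, with FN replicate 2). In both genes FN replicate 2 was the highest and FN replicate 1 the lowest FN library, all 3 stood above every MN library, and the FN libraries differed among themselves by more than the groups' nearest values did. Klf6, a zinc finger factor of the regeneration program, measured 89.5, 166 and 106 CPM in FN and 65.5, 59.5 and 73.6 CPM in MN (0.51 ± 0.12, adjusted p = 0.028). Gap43, a growth cone protein, and Hspb1, a small heat shock protein, both injury-induced, were not called, with 250.2, 848 and 372 CPM in FN and 339, 299 and 289.6 CPM in MN and 134, 486 and 167 CPM in FN and 123, 152 and 163 CPM in MN (adjusted p = 0.905 and 0.977). The summed level of the list was 1565, 3790 and 2119 CPM in FN and 1387, 1527 and 1505 CPM in MN.

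The promoter of Sprr1a is shown because it holds the AP-1 letters TGANTCA, bound by factors such as Jun and Fos, with capitals marking each match on either strand (RefSeq, GRCm38.p6, 250 bases before the start site, chr3:92485882-92486131, minus strand).
Sprr1a: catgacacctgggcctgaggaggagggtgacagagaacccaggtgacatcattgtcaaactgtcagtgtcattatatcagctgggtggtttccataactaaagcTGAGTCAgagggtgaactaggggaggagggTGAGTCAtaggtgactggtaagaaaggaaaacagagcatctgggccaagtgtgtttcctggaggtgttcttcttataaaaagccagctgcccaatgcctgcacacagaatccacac
The matches began 146 and 116 bases before the start site. TGANTCA was found in 3 of 17 axon injury genes with a promoter in the table (17.6%) and in 7.82% of all genes with one. No GAGGAA match lies in this sequence and no TGANTCA match in the 3 macrophage promoters shown, but the lists as a whole do not divide this way. GAGGAA was found in 6 of the 17 axon injury genes (35.3%), and TGANTCA in 4 of the 26 macrophage list genes (15.4%).

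Gal was the only higher and Sst the only lower gene among 14 neuropeptides tested of 27 autosomal genes on that list. Tac1 measured 907, 2910 and 975 CPM in FN and 839, 708 and 661 CPM in MN (0.30 ± 0.10, edgeR adjusted p = 0.108) and Calcb, a second CGRP precursor, 410.2, 501 and 296 CPM in FN and 417, 360.2 and 326 CPM in MN (adjusted p = 0.712). FN replicate 2 was the highest library for both.

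Immediate early genes, which cells switch on within minutes of activity, stress or tissue dissociation, were higher in FN. Of 43 genes 41 were tested, 23 were higher and 0 lower without FN replicate 2, with a median log2 fold change of 0.62, and 15 were called without FN replicate 3 and 17 to 23 when any other library was left out. The list sum was close to equal among FN libraries, at 4831, 4920 and 4798 CPM, against 2587, 3046 and 3087 CPM in MN. Single genes of FN replicate 2 were less even, above every MN library for 24 of the 43 and below every MN library for 15. Of the 23 genes called higher, FN replicate 2 lay above the MN range for 16, within it for 1 and below it for 6. With all 6 libraries 20 of 40 genes had an unadjusted p under 0.05, against 5.79% of all genes tested. Fos, a subunit of AP-1, measured 600.4, 566 and 484 CPM in FN and 215, 340.3 and 306 CPM in MN (0.86 ± 0.15, adjusted p = 0.0066). Junb, another AP-1 subunit, measured 249, 267 and 262 CPM in FN and 146, 148 and 162 CPM in MN (0.70 ± 0.09, adjusted p = 0.0012). Id3, an inhibitor of helix-loop-helix factors, measured 298, 622 and 271 CPM in FN and 125, 98.2 and 123 CPM in MN (1.25 ± 0.11, adjusted p = 8.0e-05). All FN libraries were above all MN libraries for these 3 genes, and for Dusp1, a phosphatase that ends MAP kinase signals (285, 253 and 299 CPM in FN and 137, 171 and 188 CPM in MN). Hspa1a and Hspa1b, inducible heat shock proteins, measured 119.7, 54.0 and 96.2 CPM in FN and 32.2, 30.7 and 36.7 CPM in MN and 13.7, 11.4 and 12.3 CPM in FN and 4.36, 4.48 and 3.56 CPM in MN. These copies are near identical, and reads mapped to several places lie outside the gene counts, so part of their reads can be missing. Jun, with 469, 358 and 489 CPM in FN and 399, 492 and 441 CPM in MN, was not called (adjusted p = 0.805).

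Glucocorticoid response genes gave 8 higher and 0 lower of 22, with a median log2 fold change of 0.53, and the list shares genes with the immediate early list. Mt1, the metal-binding protein metallothionein 1, measured 308, 1645 and 342 CPM in FN and 174, 183 and 229 CPM in MN (0.68 ± 0.11, edgeR adjusted p = 0.0044). Cebpd, an acute response transcription factor, measured 81.2, 244 and 84.5 CPM in FN and 37.4, 38.6 and 51.0 CPM in MN (0.92 ± 0.14, adjusted p = 0.0024). Zbtb16, a zinc finger factor that glucocorticoids induce, measured 11.3, 4.96 and 11.4 CPM in FN and 5.06, 3.70 and 5.05 CPM in MN (1.25 ± 0.26, adjusted p = 0.014). FN replicate 2 was far above all other libraries for Mt1 and Cebpd, and for Zbtb16 lay just within the MN range. The call count was 3 without FN replicate 1, 4 without FN replicate 3 or MN replicate 2, 5 without MN replicate 1 and 12 without MN replicate 3. Of 12 receptors for steroids, prolactin and growth hormone that were tested, 0 were higher and 0 lower. An unadjusted p under 0.05 was met by 2 of them, near the share of 20.5% over all genes tested. Nr3c1, the glucocorticoid receptor, measured 26.9, 44.6 and 27.4 CPM in FN and 20.4, 25.1 and 23.8 CPM in MN (adjusted p = 0.570).

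Circadian clock genes were higher in FN for 8 of 17 tested, with 0 lower and a median log2 fold change of 0.56. Dbp, a clock output transcription factor, measured 28.2, 17.0 and 14.2 CPM in FN and 7.59, 7.51 and 7.11 CPM in MN (1.47 ± 0.27, edgeR adjusted p = 0.0069). Per3, a negative arm gene of the clock, measured 15.6, 8.87 and 12.2 CPM in FN and 3.80, 6.39 and 5.74 CPM in MN (1.32 ± 0.27, adjusted p = 0.012). Nr1d1, the repressor Rev-erb alpha, measured 69.5, 24.0 and 75.2 CPM in FN and 41.1, 43.4 and 37.6 CPM in MN (0.78 ± 0.12, adjusted p = 0.0030). FN replicate 2 was above every MN library for Dbp and Per3 and below every MN library for Nr1d1. Bhlhe40, a clock repressor, measured 97.7, 17.4 and 104 CPM in FN and 50.1, 56.4 and 48.3 CPM in MN (0.92 ± 0.12, adjusted p = 0.00097), and Per1, another negative arm gene, 72.8, 20.0 and 78.2 CPM in FN and 38.8, 52.8 and 55.9 CPM in MN (0.56 ± 0.14, adjusted p = 0.039). Cry2, also of the negative arm, was not called, with 221, 47.0 and 246 CPM in FN and 229, 243 and 247 CPM in MN (adjusted p = 0.649). The hour of tissue collection is not in the labels, and 2 genes were called without FN replicate 1, 4 without FN replicate 3, MN replicate 1 or MN replicate 2, and 7 without MN replicate 3.

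Interferon response genes gave 3 higher and 2 lower of 33 tested without FN replicate 2, with a median log2 fold change of 0.26. Over all genes tested 4.04% were called higher and 1.59% lower. Rsad2, the antiviral enzyme viperin, measured 25.5, 22.6 and 46.3 CPM in FN and 13.2, 12.3 and 21.3 CPM in MN (1.14 ± 0.26, edgeR adjusted p = 0.021). Stat2, a transducer of type I interferon signals, measured 80.3, 25.8 and 95.2 CPM in FN and 116, 110.3 and 113 CPM in MN (-0.42 ± 0.11, adjusted p = 0.045). Ifitm3, a membrane protein that blocks virus entry, measured 183, 275 and 136 CPM in FN and 103, 81.3 and 123 CPM in MN (0.59 ± 0.16, adjusted p = 0.045), and Lgals3bp, a secreted galectin-binding protein, 127, 97.2 and 113 CPM in FN and 166, 157 and 161 CPM in MN (-0.48 ± 0.10, adjusted p = 0.016). The groups did not overlap for these 4 genes, with FN above MN for Rsad2 and Ifitm3 and below it for Stat2 and Lgals3bp. With 6 libraries FN lay wholly above MN for 9.72% of genes tested and wholly below it for 10.4%. B2m, the light chain of MHC class I, was not called, with 523, 832 and 379.8 CPM in FN and 369, 315 and 413 CPM in MN (adjusted p = 0.304). The call counts were 0 higher and 0 lower without MN replicate 2 and 5 higher and 1 lower without MN replicate 3.

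Of the housekeeping lists, oxidative phosphorylation had 0 genes called of 69 tested in either fit and ribosomal proteins 2 higher of 56 without FN replicate 2. At an unadjusted p under 0.05 there were 6 and 16 genes without FN replicate 2, where 20.5% of all genes tested met that threshold. Their medians were 0.035 and 0.22 without FN replicate 2 and 0.91 and 1.10 with it. Cox4i1, a subunit of cytochrome oxidase, measured 904, 3396 and 769 CPM in FN and 774, 658 and 695 CPM in MN, and Rps3, a protein of the small ribosomal subunit, 317, 712 and 234 CPM in FN and 238, 164 and 183 CPM in MN. The 2 ribosomal genes called were Rpl14 and Rps19, and Rps19 measured 27.7, 68.4 and 22.2 CPM in FN and 9.42, 15.4 and 7.80 CPM in MN. In FN replicate 2, levels were above the MN range for 66 of 76 and 61 of 77 autosomal genes of these lists.

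Other genes with large falls were not on a list. Oxtr, the oxytocin receptor, measured 3.14, 4.83 and 3.97 CPM in FN and 6.05, 10.9 and 14.9 CPM in MN (-1.64 ± 0.37, edgeR adjusted p = 0.021). Lgi3, a secreted synaptic protein of neurons, measured 109, 71.6 and 117 CPM in FN and 176, 259 and 233 CPM in MN (-1.03 ± 0.14, adjusted p = 0.0016). Omg, a membrane-anchored inhibitor of neurite outgrowth, measured 25.3, 18.1 and 25.5 CPM in FN and 44.4, 53.4 and 48.3 CPM in MN (-0.99 ± 0.14, adjusted p = 0.0018). All FN libraries were below all MN libraries for these 3 genes, as for 10.4% of genes tested with 6 libraries. The rule that named them required this of FN replicates 1 and 3. FN replicate 2 lay below the MN range for 56.3% of all genes tested. Fndc5, the precursor of irisin, and Lin7b, a synaptic scaffold protein, fell by 1.04 and 0.94 on the log2 scale (adjusted p = 0.0098 and 0.016).

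Of 11 genes that the study named for this comparison or for the neurons themselves, 9 were tested and 5 were higher without FN replicate 2, with 0 lower: Sprr1a, C1qa, C1qc, Csf1r and Hhex. Without FN replicate 3 as well, 3 genes of the list were higher. The list was chosen on these samples and so is no independent evidence of its direction. The study also stained ganglia for Csf1R and C1qa protein, and reports both in a larger share of WGA-labeled neurons in females than in males. Bulk counts cannot place these transcripts in neurons or in macrophages. Hhex, a homeobox factor of endothelial and blood progenitors, measured 9.30, 2.22 and 8.63 CPM in FN and 3.66, 2.91 and 4.59 CPM in MN (1.22 ± 0.29, edgeR adjusted p = 0.028), and was called in 8 of 15 alternative settings, with adjusted p of 0.180 without FN replicate 1, 0.106 without FN replicate 3, 0.0666 without MN replicate 1 and 0.105 without MN replicate 2. Sh2b3, an adaptor of cytokine signaling, measured 23.3, 2.35 and 25.2 CPM in FN and 17.4, 11.7 and 14.6 CPM in MN (0.69 ± 0.19, adjusted p = 0.053). FN replicate 2 was below every MN library for both. Dnahc1, an axonemal dynein chain, had 9, 0 and 15 counts in FN and 5, 3 and 4 counts in MN, and Fam23a, a transmembrane protein, 0, 2 and 1 counts in FN and 3, 12 and 2 counts in MN, and neither passed the filter. Of all 731 genes called without FN replicate 2, 151 were on one of the lists (20.7%), and 99 were on a list of cell type markers.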

How the data were processed

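The counts are the authors' own. Per the study's methods and labels, 50-base single reads (SMART-seq2, CASAVA 1.8.2) were aligned to mm9 with TopHat2 and deposited as HTSeq counts per gene symbol. Reads mapped to several places have a row of their own in these counts. The other versions, the annotation, the strand setting and the counting mode for overlapping genes are not given in the sources used here. The labels give WGA at 0.5% and the methods another strength.

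Rows naming no gene held 76.3% to 82.0% of reads in FN and MN and were left out. Symbols were matched to GENCODE M1 (mm9, 95.7%), and 982 unmatched genes and 994 genes on X or Y were left out. CPM and RPKM (per exon length) were computed here. The main test was edgeR 4.0.16 (R 4.3.3, TMM, minimum count 10, minimum total 15, quasi-likelihood, Benjamini-Hochberg, adjusted p under 0.05) on 6 libraries and on 5 without FN replicate 2, tested on simulated data. A prior count of 2 entered the log2 levels of the lists, not the fold changes of the fits. Alternatives used DESeq2 1.42.0, limma 3.58.1, other scalings, filters and designs, and each library left out. Leaving out FN replicate 1 or 3 as well leaves 1 FN library, assumed to vary like MN. Nothing says that libraries came from separate days, so p-values measure the spread between these pools.

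The members, lists and rules were chosen with earlier results of these data known. Named were the study's genes, the 10 largest rises and falls among called, non-overlapping genes with a mean CPM over 10 (without FN replicate 2), the 10 smallest p (6 libraries), and 4 top-level genes a list, plus called neuron genes. Cd68, Cd74, Cebpd, Dbp, Fcer1g, H2-Aa, Hspa1a, Junb, Kcnj10, Klf6, Mal, Per3, Rpl14, Rps19, Rsad2, Runx1, Sox10, Tmem204, Trpa1, Tyrobp and Zbtb16 fall outside this rule and were chosen after their values were seen. Promoters are from RefSeq (GRCm38.p6), and no coordinates were converted. Some genes that the rule names are not reported here.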

Additional observations from a re-analysis of the deposited data

Results flagged for a closer look

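The share of reads mapped to several places lies outside the gene counts that were compared. It was 56.0% in FN replicate 2 and 43.0% to 45.5% in the other FN and MN libraries, and the 100 most abundant genes of FN replicate 2 held 27.7% of its reads on genes, against 18.2% to 19.2% in the others. The part of these differences in the levels of FN replicate 2 was not tested.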

How the results depend on the processing

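With all 6 libraries, 0 genes were called by edgeR, against 66 by DESeq2, 969 by limma-voom with sample weights, 55 in the fit of 4 groups when FN replicate 2 and FT replicates 2 and 3 were dropped, and 0 to 731 with each library left out (731 without FN replicate 2). The 425 genes counted by RPKM, fold change and unadjusted p became 788 with scaling to sensory neuron genes, 659 with DESeq2, 215 with the replicate number as a block, and 122 to 1087 with each library left out. Without FN replicate 2, the 731 calls became 1472 with scaling to sensory neuron genes, 1128 with no filter on low counts, 0 in the fit of 4 groups without FN replicate 2, 55 in that fit when FT replicates 2 and 3 were dropped as well, and 243 to 882 with each further library left out (243 without FN replicate 1, 274 without MN replicate 2, 324 without FN replicate 3, 469 without MN replicate 1). The 498 genes by criteria became 812 with the neuronal scaling, 136 in the fit of 4 groups without FN replicate 2 and 427 to 614 with a library left out. Among named genes, signs turned for Retnlg (-0.817 without FN replicate 1, with a range of -0.817 to 2.45 over libraries left out) and Trpv1 (0.182 with the neuronal scaling, 0.199 without FN replicate 1, 0.0547 without MN replicate 1, with a range of -0.328 to 0.199). The cause was not tested.

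Same-numbered FN and MN libraries deviated with correlations of -0.0869, -0.00782 and 0.11, so the numbers were not taken as pairs. With the replicate block 664 genes were called without FN replicate 2 and 434 by criteria. Over named genes, 412 values kept their direction and side of the threshold, 37 passed it anew and 77 no longer passed it. Of 120 list medians under alternative settings, 114 moved by less than 1 SD and 6 by more. That SD includes FN replicate 2 and can be wide, as for the endothelial list (0.557, beside a median of 0.492). The sensory neuron median changed sign within its SD of 0.164. It was -0.087 with 6 libraries, 0.0095 without FN replicate 1 and 0.031 without FN replicate 3. The median of other leukocytes was 0 in every setting.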
